A study of Mus musculus with 16 samples.

Results

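The 10 genes described here belong to the growth hormone, STAT5 and IGF1 axis: the growth hormone receptor gene Ghr, the kinase gene Jak2, the transcription factor genes Stat5a and Stat5b, the feedback and target genes Cish, Socs2, Socs3 and Bcl6, the growth factor gene Igf1 and the receptor gene Igf1r. They were chosen by gene symbol from the 14538 genes measured in mouse tibialis anterior muscle, and the choice was made with the group differences of these same libraries known. The differences between groups are therefore given below as a description, with no p-value for any of the 10 genes. All 10 were in the table, were above the minimum for testing (11841 genes were) and had a value above 0 in every library.

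The mice were wild-type C57BL/6 males (C57BL/6J in the methods), housed singly at 29 °C and fed a diet rich in fat and fructose (a NASH diet) from 8 weeks of age. In 6 mice, recombinant human GDF15, a hormone that lowers food intake through a hindbrain receptor, was injected under the skin each morning (GDF15-treated, mice 1 to 6). Another 5 mice received vehicle (mice 1 to 5), and 5 pair-fed mice (mice 2 to 6) were each day given as much food as the GDF15 group took on the previous day. For the study as a whole the labels list 3 GDF15 doses between 0.3 and 5 nmol per kg without giving the dose of these 6 mice, and the sources used here give neither their age at sampling nor their time on treatment. All mice were killed in the fed state, with 1 RNA-seq library per animal.

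Growth hormone binds its receptor and switches on the kinase JAK2 bound to it, which phosphorylates STAT5A and STAT5B. These enter the nucleus and raise the transcription of Igf1 and of Cish and Socs2, whose protein products dampen the same receptor, so that Cish and Socs2 RNA follow the recent activity of the pathway. SOCS3 is the corresponding brake of cytokines of the interleukin-6 family, and BCL6 is a repressor that can occupy sites shared with STAT5. Growth hormone is secreted in pulses in male mice, and in muscle the hormone and locally made IGF1 act on growth and metabolism.

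STAT5 binds the palindrome TTCNNNGAA, and the promoters of the members were searched for it because several of them are known STAT5 targets. RefSeq promoter windows (GRCm38.p6, 250 bases before to 50 after each annotated start) were at hand for every member except Socs2 (9 of 10). Socs2 was not searched. The windows of the others held the palindrome in Cish, Socs3 and Bcl6. It was present in 2726 of 32851 such windows (8.30%) and present 2 or more times in 150 (0.457%). Below, each stretch is written 5′ to 3′ on the strand of the gene, with the palindromes in capitals.

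Cish (chr9:107296654-107296683, + strand): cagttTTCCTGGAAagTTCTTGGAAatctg

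Socs3 (chr11:117969502-117969530, - strand): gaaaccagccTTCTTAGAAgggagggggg

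Bcl6 upstream start (chr16:23988952-23988980, - strand): agcaaattagTTCTCAGAAttccagaggc

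Bcl6 downstream start (chr16:23981358-23981456, - strand): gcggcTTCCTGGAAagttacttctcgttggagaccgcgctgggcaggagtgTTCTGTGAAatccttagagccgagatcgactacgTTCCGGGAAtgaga

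Both Cish palindromes lay just downstream of its RefSeq start, at positions 1 to 9 and 12 to 20 counted from the first transcribed base as 1. In GENCODE vM21 they fell in an untranslated exon of 1 of 5 Cish transcripts and outside the other 4. The Socs3 palindrome lay at -154 to -146, in an intron of 1 of its 3 transcripts. The palindrome of the upstream Bcl6 start lay at -118 to -110, outside both Bcl6 transcripts, and the 3 of the downstream Bcl6 start, at -168 to -80, in an intron of 1 of its 2 transcripts. The windows of Igf1, Igf1r, Ghr, Stat5a, Stat5b and Jak2 did not hold these letters. A BCL6 core, TTCCTAGAA, which is one form of the same palindrome, was searched on both strands, was present in 135 of all windows (0.411%) and was in none of the members' windows. A match describes the letters in these windows and is no evidence of binding.

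In the assembly of GENCODE vM21 (GRCm38), the members lie on 7 chromosomes and all are protein coding. Cish is at chr9:107296026-107302784, Socs2 at chr10:95385362-95417180 and Socs3 at chr11:117966079-117970047. Stat5a (chr11:100859351-100885169) and Stat5b (chr11:100780731-100850724) are neighbours, and Igf1 is at chr10:87858265-87937042. Bcl6 is at chr16:23965052-23988852, Igf1r at chr7:67952827-68233668, Ghr at chr15:3317760-3583492 and Jak2 at chr19:29251828-29313080. Exons of Cish overlap Gm17040 and Gm17041 on the other strand, those of Bcl6 share 21 bases with Gm37419, and those of Stat5a share 72 bases with Stat3 on the other strand. The strand setting of the counting is not given in the sources used here, so reads of these stretches cannot be assigned to one strand. Stat3 itself had 797, 780 and 779 normalized counts on average in the vehicle, GDF15 and pair-fed groups.

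Levels are in normalized counts, read counts scaled to a common library size, recovered from the deposited log2 values. The libraries held about 9608529 to 15030303 reads, with 9608529 to 13890889 in the GDF15 group and 11821056 or more in each library of the other groups. The 9 muscle fibre markers summed to between 1961878 and 2355775 normalized counts in every library, against at most 424 for the 6 measured leukocyte markers and 1170 for the 5 adipocyte markers. The 7 fibroblast and tendon markers summed to 2646 to 6086, and the 4 Schwann cell markers to 451 to 1095. The 4 satellite cell markers summed to 288 to 459, and the 3 measured red blood cell markers to 79.9 to 3743. In bulk tissue, fewer cells of a type and less RNA per cell cannot be told apart.

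Compared per kilobase of median coding transcript, Ghr was the most abundant member in vehicle-treated muscle with 2026 ± 122 normalized counts per kilobase (SD, n = 5), followed by Stat5b with 684 ± 13.1 and Bcl6 with 472 ± 111. Socs2 (171 ± 117), Jak2 (169 ± 7.27), Cish (143 ± 110) and Stat5a (73.7 ± 1.01) formed the middle of the order. Igf1 (26.9 ± 5.01), Socs3 (25.4 ± 18.2) and Igf1r (17.4 ± 2.17) were lowest. The ranges over mice separated Ghr from Stat5b, Stat5b from Bcl6, and Stat5a from Igf1, whereas from Bcl6 to Stat5a and from Igf1 to Igf1r each neighbour overlapped the next. Cish was the 6th of 10 members in the vehicle and pair-fed groups and the 10th in the GDF15 group, with 9.68 ± 8.65 normalized counts per kilobase (SD, n = 6). The order depends on the length assumed: with the longest coding transcript of each gene, Stat5b (674) came before Ghr (589) and Igf1 was last (5.21).

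Cish, which encodes the feedback inhibitor CIS, was the member that differed most between groups. It had 92.7, 101, 805, 529 and 431 normalized counts in vehicle-treated mice 1 to 5. In GDF15-treated mice 1 to 6 it had 14.7, 69.9, 13.2, 17.9, 6.03 and 37.5. Pair-fed mice 2 to 6 had 308, 347, 411, 506 and 662. Every GDF15-treated mouse was below every mouse of both other groups, while the vehicle group was itself split, with mice 1 and 2 far below mice 3 to 5 and below all pair-fed mice. The means were 392 ± 302 (vehicle, SD, n = 5), 26.5 ± 23.7 (GDF15, n = 6) and 447 ± 142 (pair-fed, n = 5), so that GDF15-treated muscle held 5.94% of the pair-fed and 6.77% of the vehicle level. On the log2(normalized count + 1) scale the difference was -4.37 (SE 0.57) from pair-fed and -3.76 (SE 0.57) from vehicle, and pair-fed and vehicle differed by 0.61 (SE 0.60). The last value rested on single vehicle mice, being 0.22 without mouse 1, 0.25 without mouse 2 and 0.99 without mouse 3. The lowest value, in GDF15-treated mouse 5, rested on about 6 reads, and the highest of that group, in mouse 2, on about 73. On the deposited log2 scale, which compresses low counts, the first pair of differences were -1.63 and -1.36.

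**Figure D1:**
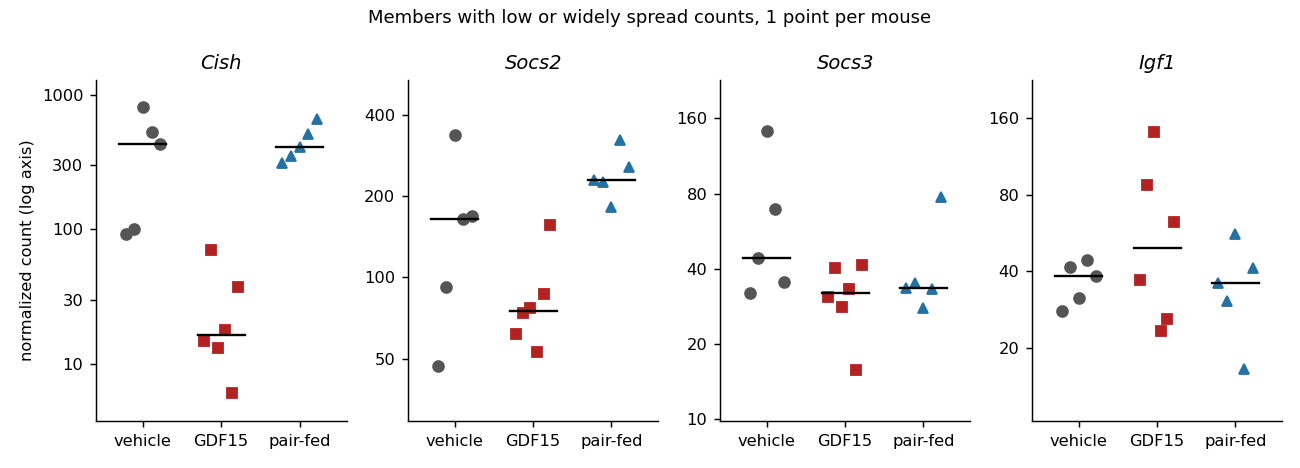
Normalized counts (log axis) of Cish, Socs2, Socs3 and Igf1 in each mouse by group, 1 point per mouse, with a line at the group median. The 6 GDF15-treated mice lie between 6.03 and 69.9 for Cish, below all other mice, while for Socs3 and Igf1 the groups overlap.

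Socs2 encodes the suppressor that limits growth hormone signalling in vivo, and mice without it grow large. Vehicle-treated mice 1 to 5 had 47.0, 91.8, 338, 164 and 169 normalized counts of it. The GDF15-treated mice lay between 52.7 and 157 with a median of 75.3, and pair-fed mice 2 to 6 had 230, 226, 183, 324 and 257. The GDF15-treated mice were below all pair-fed mice, while the vehicle mice spanned both groups, from below the lowest GDF15-treated mouse to above the highest pair-fed one. The means of 84.8 ± 37.3 (GDF15, SD, n = 6) and 244 ± 52.1 (pair-fed, n = 5) differed by -1.58 (SE 0.36) on the log2 scale. Against the vehicle mean of 162 ± 111 (n = 5), the difference was -0.73 (SE 0.36) for GDF15 and 0.85 (SE 0.38) for pair-fed. The vehicle mice decided much of these: without vehicle mouse 3 they were -0.39 and 1.19, and the second then passed both thresholds given below, whereas without vehicle mouse 1 they were -1.10 and 0.48. On the deposited log2 scale the difference between GDF15 and pair-fed was -0.67.

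Vehicle-treated mouse 3 was the highest of the 16 mice for Cish, Socs2 and Socs3. Socs3 had 31.9, 44.1, 143, 69.5 and 35.4 normalized counts in vehicle-treated mice 1 to 5. In the GDF15 group it ranged from 15.7 to 41.4 (median 32.1), and pair-fed mice 2 to 6 had 33.6, 35.0, 27.8, 33.1 and 77.2. The groups overlapped in every comparison. The log2 difference of GDF15 was -0.34 (SE 0.35) from pair-fed and -0.84 (SE 0.35) from vehicle, and without vehicle mouse 3 the latter was -0.50. Pair-fed mice differed from vehicle by -0.50 (SE 0.37), and by -0.16 without vehicle mouse 3. Without pair-fed mouse 6 the differences of pair-fed from vehicle and of GDF15 from pair-fed were -0.75 and -0.09.

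Bcl6 was among the more abundant members, and its mean was lowest in the pair-fed group (1262 ± 283 normalized counts, SD, n = 5) and highest in the vehicle group (1666 ± 393, n = 5). It ranged from 1183 to 2141 normalized counts in vehicle-treated mice, from 1263 to 1764 in GDF15-treated mice and from 943 to 1518 in pair-fed mice, with medians of 1555, 1530 and 1394. All groups overlapped, and pair-fed mice 3 and 4 (943 and 968) were the lowest of the 16. The log2 difference was 0.30 (SE 0.15) between GDF15 and pair-fed, -0.10 (SE 0.15) between GDF15 and vehicle and -0.40 (SE 0.16) between pair-fed and vehicle. With one library left out these were 0.20 to 0.37, -0.22 to 0.00 and -0.51 to -0.30.

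Upstream of these genes, the receptor and its kinase were close to level across the groups. Ghr had 2458 ± 147 normalized counts in vehicle-treated (SD, n = 5), 2419 ± 110 in GDF15-treated (n = 6) and 2555 ± 88.6 in pair-fed muscle (n = 5), within 2243 to 2684 in all mice. Jak2 had 755 ± 32.5, 774 ± 40.8 and 819 ± 60.0 in the same order, within 716 to 925. Their log2 differences lay between -0.08 and 0.12 in the 3 comparisons, with SE of 0.04 or 0.05, and the groups overlapped in each.

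The STAT5 genes differed from each other. Stat5b, the more abundant per kilobase, had 3515 ± 67.2 normalized counts (vehicle, SD, n = 5), 3457 ± 223 (GDF15, n = 6) and 3348 ± 275 (pair-fed, n = 5), and its log2 differences lay between -0.07 and 0.05 (SE 0.05). Stat5a had 261, 267, 265, 266 and 271 in vehicle-treated mice 1 to 5 and 160, 189, 235, 169 and 209 in pair-fed mice 2 to 6. It was lower in every pair-fed mouse than in every vehicle-treated mouse, by -0.48 (SE 0.10) on the log2 scale. The GDF15-treated mice, at 222 to 309 (median 242), reached below the highest pair-fed mouse, with a log2 difference of 0.41 (SE 0.10) from pair-fed and -0.07 (SE 0.10) from vehicle. On the deposited log2 scale the first and the second of these 3 differences were -0.24 and 0.21.

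**Figure D2:**
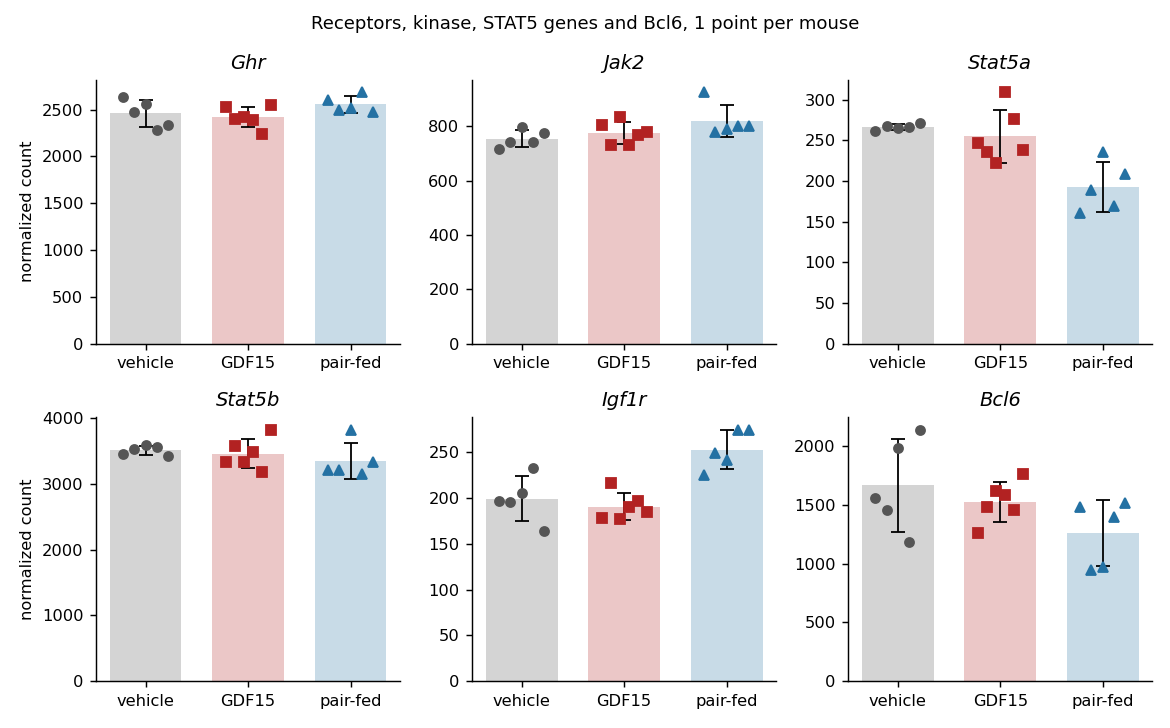
Normalized counts (linear axis from 0) of Ghr, Jak2, Stat5a, Stat5b, Igf1r and Bcl6 by group, with 1 point per mouse, bars at the group mean and error bars of 1 SD. Stat5a is lowest (mean 192) and Igf1r highest (mean 253) in pair-fed mice, and Ghr stays within 2243 to 2684 in all mice.

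Igf1, the growth factor that growth hormone induces, was low in this muscle. It had 28.0, 41.7, 31.5, 44.2 and 38.5 normalized counts in vehicle-treated mice 1 to 5 and 36.1, 30.5, 56.1, 16.6 and 41.3 in pair-fed mice 2 to 6. The GDF15-treated mice 1 to 6 had 37.0, 87.4, 141, 23.4, 26.1 and 62.2. Mice 2, 3 and 6 of the GDF15 group exceeded every other mouse, whereas mice 4 and 5 lay below every vehicle-treated mouse. The mean of 62.8 ± 45.2 (SD, n = 6) compares with 36.8 ± 6.85 and 36.1 ± 14.5 (n = 5 each), and the log2 difference was 0.48 (SE 0.39) from vehicle and 0.59 (SE 0.39) from pair-fed. Without GDF15-treated mouse 3 these were 0.19 and 0.30. Pair-fed and vehicle differed by -0.11 (SE 0.41).

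Igf1r encodes the receptor to which IGF1 binds. It had 197, 196, 206, 233 and 164 normalized counts in vehicle-treated mice 1 to 5. GDF15-treated mice ranged from 177 to 217 (median 187), and pair-fed mice 2 to 6 had 225, 249, 242, 275 and 275. The pair-fed mice were above every GDF15-treated mouse, and vehicle mouse 4 was the only vehicle-treated mouse within their range. The log2 difference was -0.41 (SE 0.09) between GDF15 and pair-fed, 0.35 (SE 0.09) between pair-fed and vehicle and -0.06 (SE 0.09) between GDF15 and vehicle. On the deposited log2 scale the larger pair were -0.21 and 0.18.

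A gene counted as changed when its adjusted p (limma, Benjamini-Hochberg over all 11841 tested genes) was under 0.1 and its log2 difference above 0.6 in size. Against pair-fed mice, 0.279% of all tested genes passed (0.135% higher and 0.144% lower in GDF15), and 2 of the 10 members did, Cish and Socs2, both lower. Against vehicle, 0.304% passed (0.203% higher, 0.101% lower) and 1 member did, Cish, which was lower. Between pair-fed and vehicle mice, 0.819% passed (0.329% higher, 0.49% lower in pair-fed) and 0 members did under limma. The groups did not overlap for 3 members (Cish, Socs2 and Igf1r) between GDF15 and pair-fed, where this held for 1.77% of all tested genes. The same was true of 1 member (Cish) between GDF15 and vehicle, with 1.65% of all genes, and of 1 member (Stat5a) between pair-fed and vehicle, with 5.44%. With the adjusted p alone and no minimum difference, the counts were 4, 1 and 2 members in these 3 comparisons, the additions being Igf1r and Stat5a, against 2.17%, 0.769% and 6.37% of all genes. Since the members were selected on these contrasts, the counts are a description. The 10 members had a median log2 difference of -0.08, -0.06 and -0.01, against 0.00 for all tested genes in each comparison.

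Socs2 passed in fewer settings than Cish. Its call against pair-fed mice was lost when GDF15-treated mouse 4 or pair-fed mouse 2, 5 or 6 was left out, with differences of -1.60 to -1.47, and that of Cish was kept in all 16 leave-outs. Each comparison shares a group with the others, so the pair-fed values enter both the contrast with GDF15 and that with vehicle. Among the marker lists of other cell types, 1 gene passed: the endothelial receptor Kdr was lower in GDF15-treated than in vehicle-treated muscle (783 against 1230 normalized counts, log2 difference -0.66, SE 0.08, limma adjusted p = 0.00116). The summed endothelial markers were 3982 to 4978 in GDF15-treated, 4760 to 5626 in vehicle-treated and 4136 to 4966 in pair-fed mice. Of the fibre markers, Myh1, the fast myosin of type IIx fibres, was lower in pair-fed than in vehicle-treated muscle (104523 against 165385, log2 difference -0.68, SE 0.14, limma adjusted p = 0.0123). The part of these markers in the members' values was not tested.

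**Figure D3:**
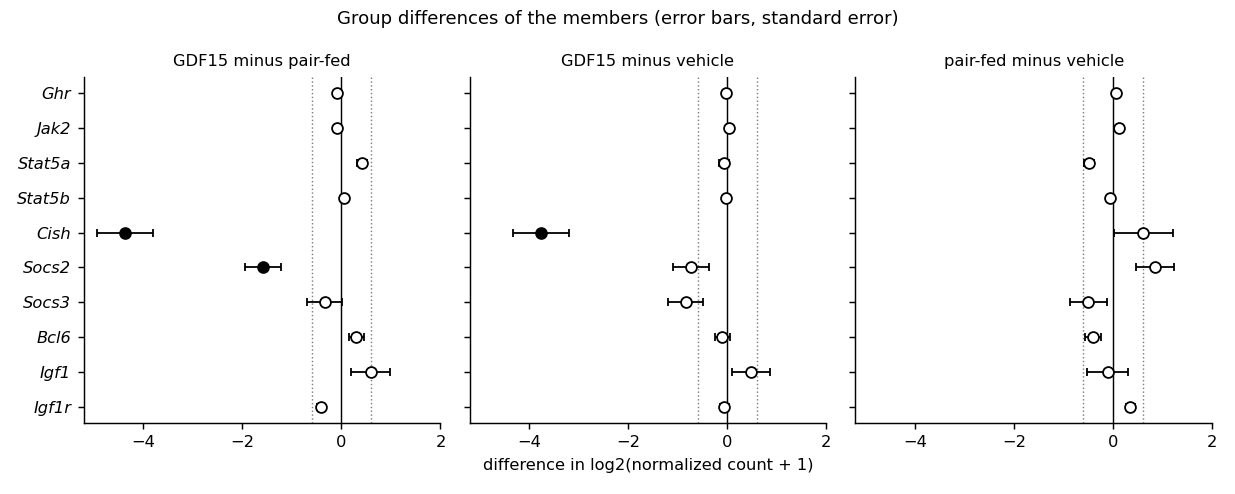
Difference in log2(normalized count + 1) of each member in the 3 comparisons, with bars of 1 standard error, dotted lines at -0.6 and 0.6, and filled points for members past both thresholds. Cish (-4.37 and -3.76) and Socs2 (-1.58) are the filled points, and Ghr, Jak2 and Stat5b lie near 0 in every comparison.

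How genes vary together among mice of the same group did not enter the contrasts on which the members were chosen. Covariation within groups could therefore be tested. Group means were subtracted from log2 values and the 45 pairs of members were correlated over the 16 mice, with permutation of 1 gene within groups. No pair passed an adjusted p of 0.1 (0 of 45), and 4 pairs had an unadjusted p under 0.05. Cish and Socs3 had the highest correlation (Pearson r = 0.74, permutation p = 0.0033, adjusted p = 0.148; Spearman rho = 0.72, p = 0.00772, adjusted p = 0.138), and r was 0.67 without the 2 mice farthest from the median deviation of Cish (GDF15-treated mouse 2 and vehicle mouse 3). Cish and Socs2 followed (r = 0.67, permutation p = 0.0302, adjusted p = 0.477; rho = 0.54, p = 0.0758, adjusted p = 0.434), with r = 0.71 without those 2 mice. Vehicle mouse 3 was the highest of its group for all 3 genes. Vehicle mice 1 and 2 were the lowest of the group for Cish and Socs2, whereas for Socs3 the lowest were mice 1 and 5, and mouse 5 was above its group mean for Cish. The other pairs were Cish with Stat5b (r = 0.42, permutation p = 0.0452, adjusted p = 0.477; rho = 0.59, p = 0.00691, adjusted p = 0.138) and Igf1r with Jak2 (r = -0.52, permutation p = 0.0434, adjusted p = 0.477; rho = -0.51, p = 0.0599, adjusted p = 0.434), with r = 0.38 and r = -0.59 without 2 mice. By rank, Ghr with Stat5a (rho = -0.60, permutation p = 0.00919, adjusted p = 0.138; r = -0.43, p = 0.0593, adjusted p = 0.477) was also stronger than Cish with Socs2, and 0 of 45 pairs passed by rank. The correlation of Cish and Socs3 passed when vehicle mouse 4 or 5 or pair-fed mouse 4 was left out (adjusted p = 0.0747, 0.00765 and 0.0891), and over 25 alternatives its adjusted p lay between 0.00765 and 0.535 and its r between 0.67 and 0.84.

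**Figure D4:**
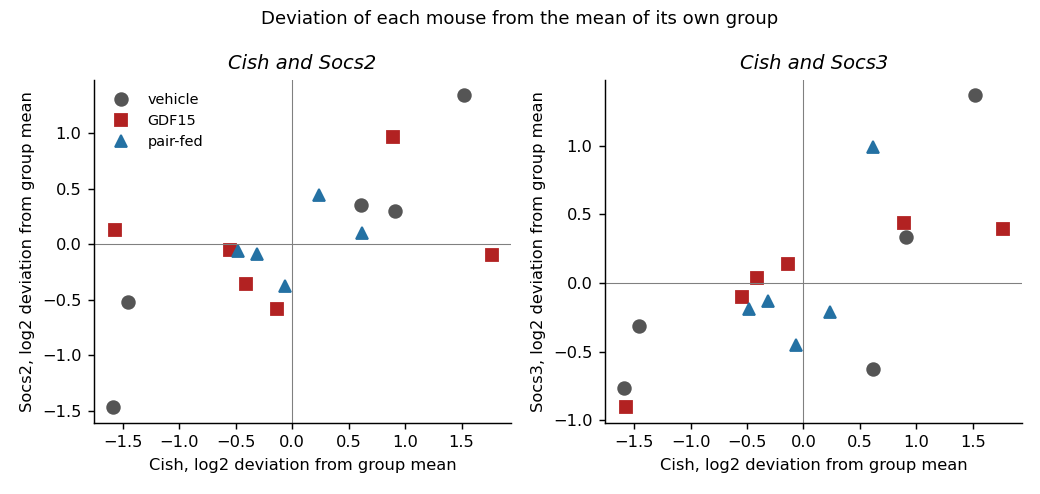
Deviation of each mouse from its group mean in log2(normalized count + 1), Cish on the horizontal axis against Socs2 (left) and Socs3 (right), with a symbol per group. The points run from low left to high right in both panels (r = 0.67 and r = 0.74, 16 mice), and neither pair passed the adjusted threshold.

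Among all 11840 other tested genes ranked by their correlation with Cish within groups, Socs3 was 14th and Socs2 was 47th. As a description over 16 mice that share libraries and depth, the genes most like Cish were Chac1 (r = 0.83), Hspb11 (r = 0.81) and Btg3 (r = 0.81), and the most opposite were Pik3cb (r = -0.89), Rab11a (r = -0.81) and Plxna2 (r = -0.80). For Socs2 the most alike were Zscan20, Ube2d-ps and Rhobtb2 (r = 0.82 to 0.84) and the most opposite Rhpn2, Dpp3 and Eif4a1 (r = -0.84 to -0.82). Bcl6 went most closely with Irgm1 (r = 0.81), Ifit3b (r = 0.80) and Ascc1 (r = 0.79), and most against Ankrd50 (r = -0.83), Lnpep (r = -0.81) and Cttn (r = -0.79). Irgm1 and Ifit3b are interferon-induced genes. Igf1 went most closely with Tap1 (r = 0.88), the peptide transporter of antigen presentation, Zkscan7 (r = 0.81) and Rin2 (r = 0.80), and most against Usp8 (r = -0.81), Kat7 (r = -0.81) and Adnp (r = -0.80).

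Beyond the members, 86 other genes of the same axis were listed by role, of which 81 were in the table and 74 were tested. None passed both thresholds between GDF15 and pair-fed (0 of 74) or between GDF15 and vehicle (0 of 74) under limma. With no minimum difference 2 (2.70%) and 0 did, where 2.17% and 0.769% of all tested genes did. An unadjusted p under 0.05 was held by 14, 15 and 21 of the 74 genes in the comparisons of GDF15 with pair-fed, GDF15 with vehicle and pair-fed with vehicle, and by 1559, 1308 and 2234 of all 11841 tested genes. Socs1, described below, is among the 74 genes and in the counts of 15 and 21. It was tested only because its vehicle values lifted its mean above the minimum. Of all tested genes, 0.279% and 0.304% passed both. Between pair-fed and vehicle mice 2 of 74 passed, both lower in pair-fed, where 0.819% of all tested genes passed. Both calls were lost on the deposited log2 values, with only the 2 groups fitted, with the mouse number as a block and at an adjusted p under 0.05. Over the 74 genes the median log2 difference was -0.02, -0.01 and -0.06 in the 3 comparisons, against 0.00 for all tested genes.

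Ptprc, which encodes the phosphatase CD45 of leukocytes and was listed because it acts on JAK kinases, was one of these. It had 14.1, 15.8, 17.9, 13.9 and 24.5 normalized counts in vehicle-treated mice 1 to 5 and 4.82, 7.31, 14.8, 10.9 and 5.95 in pair-fed mice 2 to 6. The log2 difference was -0.97 (SE 0.28, limma adjusted p = 0.0634), with pair-fed mouse 4 inside the vehicle range. The leukocyte markers, which did not include Ptprc, summed to 224 to 340 in vehicle-treated and 159 to 383 in pair-fed mice. Their part in the difference was not tested. Its call was lost without vehicle mouse 2, 3 or 5 or pair-fed mouse 2 or 6, with differences of -0.99 to -0.81.

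Ccnd2, a cyclin of the cell cycle that STAT5 can induce, was the other. It had 186, 217, 145, 185 and 500 normalized counts in vehicle-treated mice and 159, 144, 140, 130 and 103 in pair-fed mice. The GDF15-treated mice, at 117 to 181, differed by 0.09 from pair-fed and by -0.64 from vehicle on the log2 scale, the latter with a limma adjusted p = 0.274. Vehicle mouse 5 stood far above all others, and pair-fed mouse 2 lay within the vehicle range. The log2 difference of pair-fed from vehicle was -0.73 (SE 0.23, limma adjusted p = 0.0964), and -0.44, no longer called, without vehicle mouse 5. Leaving out any of 13 of the 16 libraries ended the call.

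Among the kinases, STAT, SOCS and phosphatase genes around the receptor (26 tested), the most abundant per kilobase were Jak1 (843), which encodes a kinase of other cytokine receptors, and Grb14 (607), an adaptor that restrains the insulin receptor. Of the IGF system (15 tested), the binding protein genes Igfbp5 (1230) and Igfbp7 (669) led. Mcl1 (988), a survival factor, and Gadd45g (392), a stress response gene, led the 12 other STAT5 targets. Among 15 cytokine receptor genes these were Il6st (909), the shared receptor chain of the interleukin-6 family, and Ifngr2 (272), a chain of the interferon gamma receptor. Ncor1 (469) and Hdac3 (421), which form a corepressor complex with BCL6, led the 6 BCL6 partners.

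Socs1, the brake on interferon signalling, had the largest log2 difference of the 74 genes and was singled out after its values were seen. It had 3.88 to 7.94 normalized counts in GDF15-treated mice, 8.79 to 61.4 in vehicle-treated mice and 2.61 to 26.5 in pair-fed mice. Its mean over all libraries (16.5) was above the minimum of 10 only through the vehicle group (8.70 without it), so no test of its difference from vehicle is given. It remains among the 74 genes in every count over them.

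With the adjusted p alone, 2, 0 and 8 of the 74 genes passed in the 3 comparisons (2.70%, 0% and 10.8%), against 2.17%, 0.769% and 6.37% of all tested genes. Those not yet described are named here after their values were seen. Cntfr, a receptor chain for ciliary neurotrophic factor, was higher in GDF15-treated than in pair-fed muscle (326 against 236 normalized counts, log2 difference 0.47, limma adjusted p = 0.0616). Ptpn11, which encodes the phosphatase SHP2, was lower in pair-fed muscle than in either other group, with log2 differences of -0.24 from vehicle (limma adjusted p = 0.0178) and 0.19 for GDF15 from pair-fed (limma adjusted p = 0.0687). Between pair-fed and vehicle mice, Mcl1 (0.29, limma adjusted p = 0.0103), Gab1 (0.30, limma adjusted p = 0.0159) and Pim3 (0.28, limma adjusted p = 0.0637) were higher in pair-fed. Socs7 (-0.28, limma adjusted p = 0.0409) and Igfbp5 (-0.33, limma adjusted p = 0.0889) were lower. All of these are under the minimum difference of 0.6.

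**Figure D5:**
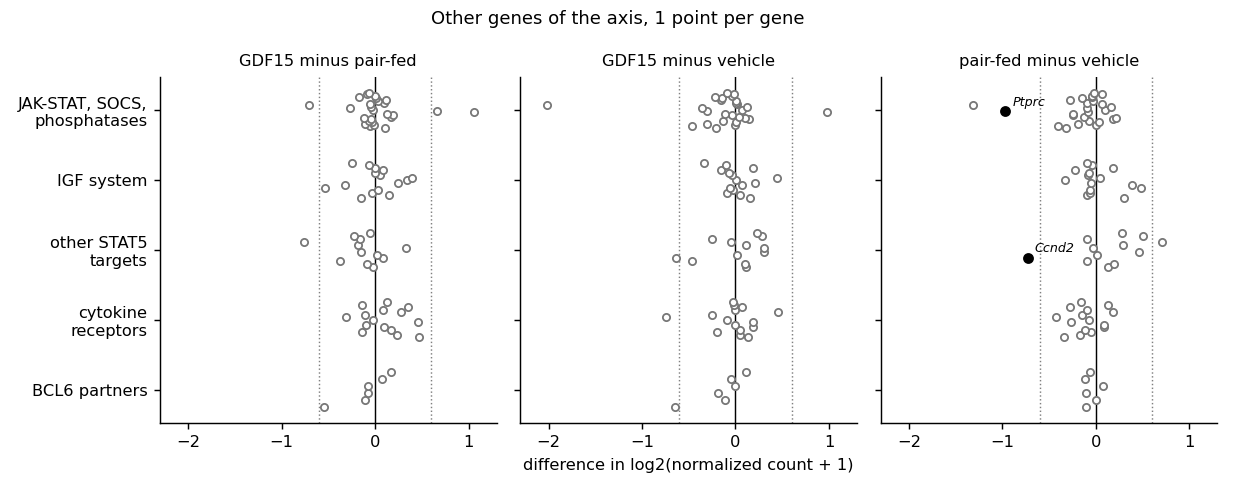
Difference in log2(normalized count + 1) of the 74 other tested genes of the axis, 1 point per gene in 5 lists by role, for the 3 comparisons, with dotted lines at -0.6 and 0.6. Ptprc (-0.97) and Ccnd2 (-0.73), lower in pair-fed than in vehicle-treated muscle, are the filled points that passed both thresholds.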

How the data were processed

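Total RNA of tibialis anterior was sequenced as 2 × 50 bp directional libraries, 1 per mouse. Per the methods, the authors used Trim Galore for trimming, Salmon for transcript abundance and DESeq2 for scaling. The submitters' processing notes name mm10. Tool versions, annotation, strand setting and gene filter are not given in the sources used here. The deposited log2 values (14538 genes, from 7.32 to 19.96, with 8459 at the lowest) are called normalized counts by the authors but are variance-stabilized values of the kind the authors' DESeq2 step gives. The closed form of that transformation was inverted to obtain normalized counts. In genes with a single transcript, 92.7% to 98.1% of low values per library then lay within 0.1 reads of a whole number, and 20.0% to 27.0% in genes with more than 4 transcripts, so whole reads were not recovered in the latter and no count test was run. Library depths are estimates from those steps, and intervals between mice are the only error given.

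Groups came from the labels. The 11841 genes whose mean over libraries reached 10 normalized counts were fitted with limma 3.58.1 (R 4.3.3, trend) on log2(normalized count + 1) over all 3 groups, and p-values were adjusted by Benjamini-Hochberg over all of them. Thresholds were an adjusted p under 0.1 and a log2 difference above 0.6. On simulated data, 172 of 200 genes changed 2-fold between GDF15 and pair-fed mice were called, with 4 unchanged genes, and 197 of 200 changed 4-fold, with 11. Within-group correlations used 100000 two-sided permutations, with adjustment over 45 pairs. Gene positions came from GENCODE vM21 and promoters from RefSeq.

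The members and gene lists were chosen with earlier results of these data known. Genes named are all members, listed genes past both thresholds or the 2 most abundant per kilobase of each list, and the 3 genes most and least correlated with Cish, Socs2, Bcl6 and Igf1. Outside this rule, Socs1, Cntfr, Ptpn11, Gab1, Pim3 and Socs7, and the markers Kdr and Myh1, were named after their values were seen. Of the 86 listed genes, 5 had no row, and Pappa, Pappa2, Stc1, Prlr, Epor, Il2rb and Il7r were below the minimum. Alternatives covered the pseudocount, filter, scale, trend, library weights, groups fitted, replicate block, normalization, thresholds, each library left out and transcript length.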

Additional observations from a re-analysis of the deposited data

Results flagged for a closer look

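In 4 of 30 groups of member values, 1 mouse lay far from the rest of its group by Dixon's criterion. Normally distributed values meet it by chance in about 1 group in 20. It was applied to normalized counts without a log, and their distribution was not tested. Socs2 was highest in GDF15-treated mouse 6, with 157 normalized counts, where the other 5 mice had 52.7 to 86.8. Socs3 was highest in pair-fed mouse 6, with 77.2, where the others had 27.8 to 35.0. Stat5b was highest in pair-fed mouse 4, with 3826, and the other pair-fed mice had 3154 to 3331. Jak2 was highest in pair-fed mouse 2, with 925, and the others had 778 to 801. Pair-fed mouse 6 was also the highest of its group for Cish (662), and GDF15-treated mouse 6 was the second highest of its group for Cish (37.5). Without pair-fed mouse 6, the Socs3 difference between GDF15 and pair-fed mice was -0.09, in place of -0.34.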

How the results depend on the processing

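Cish passed both thresholds between GDF15 and either other group in every alternative, and the count of members between GDF15 and vehicle was 1 in all. Against pair-fed mice the members past both thresholds were 2 in most settings, 1 with no trend and 4 with no minimum difference, and 1 to 2 with one library left out. Between pair-fed and vehicle mice they were 2 with no minimum difference and 0 to 1 with one library left out, the 1 being Socs2 without vehicle mouse 3. Of the other axis genes, 2 passed between GDF15 and pair-fed with no minimum difference, and 0 to 1 with one library left out in either comparison of GDF15. Between pair-fed and vehicle mice their count of 2 became 1 with a minimum mean of 50, no filter, no trend or quantile normalization. It became 0 on the deposited log2 values, with only the 2 groups fitted, with the replicate block or at an adjusted p under 0.05, 8 with no minimum difference, and 0 to 2 with one library left out. Of all tested genes, 33, 36 and 97 passed in the 3 comparisons. On the deposited log2 values these were 7, 9 and 17, at an adjusted p under 0.05 they were 18, 23 and 56, and with no minimum difference 257, 91 and 754. With one library left out they were 15 to 62, 21 to 38 and 60 to 157. The deposited scale compresses differences of low counts, and the cause of the other changes was not tested.

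Over all tested genes, the 14 pairs of mice of different groups with the same number had deviations that correlated at -0.099 to 0.067. None of the 14 was over 0.1, and the 71 pairs with different numbers lay between -0.112 and 0.194. These values cannot tell whether the numbers match mice by food intake, because matched intake need not make muscles deviate alike. With the number as a replicate block, 20 genes passed between GDF15 and vehicle, the Cish differences were -4.16 and -3.93, and 1 pair of members passed within groups, Cish with Socs3 (r = 0.75). Without the pair-fed group 1 pair passed, Socs3 with Stat5b, and 0 to 2 pairs passed with one library left out. The Cish values of single mice in the GDF15 group rested on few reads, about 6 to 73.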
